A study of Mus musculus with 25 samples.

Results

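Subsets of conventional dendritic cells (cDC) of the Peyer's patch, CD8a+ and CD11b+, were set against each other 9 h after mice had been given R848, a ligand of Toll-like receptor TLR7, by gavage. The comparison used all 8 arrays whose titles name these subsets and R848, 5 of CD8a+ cDC and 3 of CD11b+ cDC, out of 25 arrays in 7 groups. All mice were wild-type C57BL/6 females aged 6 to 8 weeks, and each replicate pooled 42 of them, so the spread between arrays is a spread between pools. The series design calls the replicates independent. Per the labels, CD8a+ cDC were sorted for high CD11c with MHC class II and CD8a, without SIRPa, BST2, CD11b or CD4. CD11b+ cDC were the cells high for CD11c with MHC class II that were also SIRPa positive and CD11b intermediate, without BST2, CD8a or CD4. The labels place both groups mainly in the interfollicular T cell zone, whereas the design text calls them dome cDC. The 8 titles also contain the phrase steady state, while the source and treatment labels give R848 at 9 h. No untreated array entered the fit, so every difference given here is one between the subsets after R848 and not a response to R848. In sorted bulk RNA, fewer cells of a type and less RNA per cell cannot be told apart.

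Type 1 cDC (cDC1, here the CD8a+ cells) depend on the transcription factors IRF8 and BATF3, take up dying cells and are known for presenting their antigens on MHC class I to CD8 T cells. Type 2 cDC (cDC2, here the CD11b+ cells) depend more on IRF4 and are known for presenting antigen on MHC class II to CD4 T cells. In the Peyer's patch, dendritic cells receive antigen that M cells carry across the epithelium, move to the T cell zone and help to start IgA responses. R848 is a small imidazoquinoline that activates TLR7 through MyD88, which leads to NF-kB and interferon regulatory factors.

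Values are log2 signals of Affymetrix Mouse Gene arrays, computed by the authors with RMA, and differences are log2 CD8a+ minus CD11b+ with the standard error (SE) of the limma fit. The gene-level data had medians of 4.52 to 4.60 over all rows of an array. Array profiles correlated at 0.9724 to 0.9848 among CD8a+ cDC, at 0.9807 to 0.9827 among CD11b+ cDC and at 0.9565 to 0.9746 between the groups. Olfactory receptor genes, which serve here as a floor, had a 95th percentile of 4.39, and a group mean below 4.5, close to that value, is called near the floor. A difference from a group near the floor is one of measured signals and gives no exact ratio of transcripts. Row names were used for these arrays. The mean levels of the 2 highest transcript clusters of 999 genes correlated at 0.9129 in them. The same clusters correlated at 0.1432 in untreated CD11b+ and 0.0485 in untreated CD8a+ arrays. The clusters were ranked by their means in the R848 arrays, so part of the 0.9129 can come from the ranking. CD8a+ replicates 4 and 5 stood apart from replicates 1 to 3, with lower lists of macrophage, B cell and plasma cell markers, and every count below was also made with replicates 1 to 3 alone and with replicates 4 and 5 alone, alternatives chosen after seeing the data. A call named without a remark held when each of the 8 arrays was left out in turn and with either part of the CD8a+ arrays alone. It also held under the other normalizations and variance settings and, where the gene was kept, under the filter. Genes dim in both groups, among them Tlr8, were dropped by the filter, so their calls were not tested there. The fit with the replicate number as a block is outside this statement, and 9 genes named as called lost the call in it. Some counts of 1 or 2 called members of a list gained or lost a member in these fits, and others did not. A larger count is given again where an array left out, or a part of the CD8a+ arrays alone, moved it by over 1.5 times.

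The subsets differed at 2039 of 19938 genes at an adjusted p under 0.05 (limma, Benjamini-Hochberg), 10.2% of those tested. CD8a+ cDC were higher at 979 genes (4.91%) and lower at 1060 (5.32%). The 5 CD8a+ and 3 CD11b+ arrays did not overlap at 17.0% of all genes and at 2011 of the called genes. Differences of at least 2-fold were called at 258 genes higher and 428 lower in CD8a+ cDC, and of at least 4-fold at 40 and 94. The median difference of all genes was 0.03. These percentages are the background against which the gene groups below are to be read, and the groups overlap in their members.

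Of the sort markers, Cd8a, Sirpa, Itgax and H2-Ab1 separated the arrays by subset, and Itgam, Cd4 and Bst2 did not. Cd8a, a chain of the CD8 receptor, was at 10.41, 10.83, 10.52, 10.36 and 10.55 in CD8a+ cDC and 7.05, 6.51 and 7.26 in CD11b+ cDC, listed here and below in the order of the replicate numbers (difference 3.59 ± 0.17, adjusted p = 9.74e-06). Sirpa, which binds the inhibitory signal CD47, was at 6.86, 6.65, 7.07, 5.87 and 5.47 in CD8a+ cDC and 9.50, 9.87 and 9.81 in CD11b+ cDC (-3.34 ± 0.35, adjusted p = 0.000591). Both genes were apart in every array. Itgax, the CD11c chain, was at 7.38, 7.47, 7.49, 7.57 and 7.45 in CD8a+ cDC and 8.84, 9.63 and 9.53 in CD11b+ cDC, lower in CD8a+ cDC without overlap (-1.86 ± 0.16), although both gates were CD11c-high. H2-Ab1, an MHC class II chain, was lower as well (-0.54 ± 0.09). Itgam, which encodes CD11b, was at 4.06, 4.24, 4.30, 4.05 and 4.40 in CD8a+ cDC and 3.80, 4.40 and 4.38 in CD11b+ cDC, near the floor on every array, and the groups overlapped (0.01 ± 0.15, adjusted p = 0.977, 95% interval -0.33 to 0.36). The transcript array therefore gives no measure of the surface CD11b that the gate used. Cd4 (-0.40 ± 0.15, adjusted p = 0.167) and Bst2 (0.14 ± 0.12, adjusted p = 0.613) also overlapped between the groups. Both gates excluded the proteins of these genes. The Cd4 group means were 4.75 in CD8a+ cDC and 5.15 in CD11b+ cDC. Bst2 was at high signal in both groups, with means of 10.22 in CD8a+ cDC and 10.08 in CD11b+ cDC.

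Called signature genes of cDC1 and cDC2 lay mostly on the side of the labels. The lists were chosen with earlier results of these data known, so this is no independent check of cell identity. Of the cDC1 signature, 14 of 24 measured members were higher in CD8a+ cDC and 1 was lower, with a median difference of 1.03. Of the cDC2 signature, 0 of 24 were higher and 10 were lower, with a median of -0.71. With CD8a+ replicates 1 to 3 alone, 16 cDC1 genes were higher and 11 cDC2 genes lower, and with replicates 4 and 5 alone 10 and 12. Clec9a, a receptor for actin exposed by dead cells, was at 8.81, 8.82, 9.07, 9.39 and 8.96 in CD8a+ cDC and 3.41, 4.24 and 3.39 in CD11b+ cDC, 40.3-fold higher in CD8a+ cDC (5.33 ± 0.21). Xcr1, the receptor of the chemokine XCL1, was at 8.53, 8.51, 8.82, 8.71 and 8.39 in CD8a+ cDC and 3.85, 3.89 and 3.88 in CD11b+ cDC (4.72 ± 0.10). In CD11b+ cDC both transcripts lay near the floor on every array. The orphan receptors Gpr141b (4.53 ± 0.15) and Gpr33 (3.95 ± 0.20), the lipid scavenger Cd36 (2.13 ± 0.17), the adhesion molecule Cadm1 (1.17 ± 0.14), the uptake receptor Ly75 (1.01 ± 0.13) and Tlr12 (1.13 ± 0.15) were higher in CD8a+ cDC too, with Gpr141b and Gpr33 near the floor in CD11b+ cDC. Some genes of this signature did not separate the subsets: Id2, a transcription regulator of cDC1, was at 0.09 ± 0.08, adjusted p = 0.602, Wdfy4, needed for cross-presentation, at 0.01 ± 0.18, adjusted p = 0.983 and Itgae, the CD103 chain, at -0.76 ± 0.39, adjusted p = 0.321. The member called lower was Cd24a (-0.88 ± 0.23), whose call was lost without CD11b+ replicate 1, 2 or 3 or CD8a+ replicate 2 or 4 (adjusted p = 0.0609 to 0.151) and after a shift to a common median (adjusted p = 0.0574).

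Among cDC2 genes, Csf1r, the receptor of macrophage colony-stimulating factor, was at 5.82, 5.00, 6.25, 4.47 and 4.52 in CD8a+ cDC and 7.60, 7.92 and 7.94 in CD11b+ cDC (-2.61 ± 0.41). The CD8a+ values of Csf1r ran over more than 1 log2 unit and were lowest in replicates 4 and 5, yet all lay below the CD11b+ values. Il1r2, the decoy receptor for interleukin-1, was at 4.83, 4.54, 4.18, 3.75 and 3.60 in CD8a+ cDC and 6.73, 7.51 and 7.47 in CD11b+ cDC (-3.06 ± 0.31). Ffar2, a receptor for short-chain fatty acids made by gut bacteria, was 7.75-fold lower in CD8a+ cDC (-2.95 ± 0.16), and the C-type lectins Clec4a4 (-2.05 ± 0.23) and Clec4a1 (-1.78 ± 0.21) and the calcium-binding protein S100a4 (-2.38 ± 0.27) were also lower. In CD8a+ cDC, Il1r2, Clec4a4 and Clec4a1 were near the floor. Classical cDC2 markers of other tissues were near the floor in both subsets, among them Cd209a (group means 3.99 ± 0.12 in CD8a+ cDC and 4.09 ± 0.17 in CD11b+ cDC, SD, n = 5 and 3) and Mgl2 (3.37 ± 0.08 in CD8a+ cDC and 3.46 ± 0.13 in CD11b+ cDC). Cx3cr1 (-0.56 ± 0.31, adjusted p = 0.36), Ccr2 (0.10 ± 0.14, adjusted p = 0.772), Notch2 (-0.20 ± 0.13, adjusted p = 0.429) and Klf4 (-0.58 ± 0.18, adjusted p = 0.0815, but called without CD8a+ replicate 3 (adjusted p = 0.0197)) were not called.

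**Figure D1:**
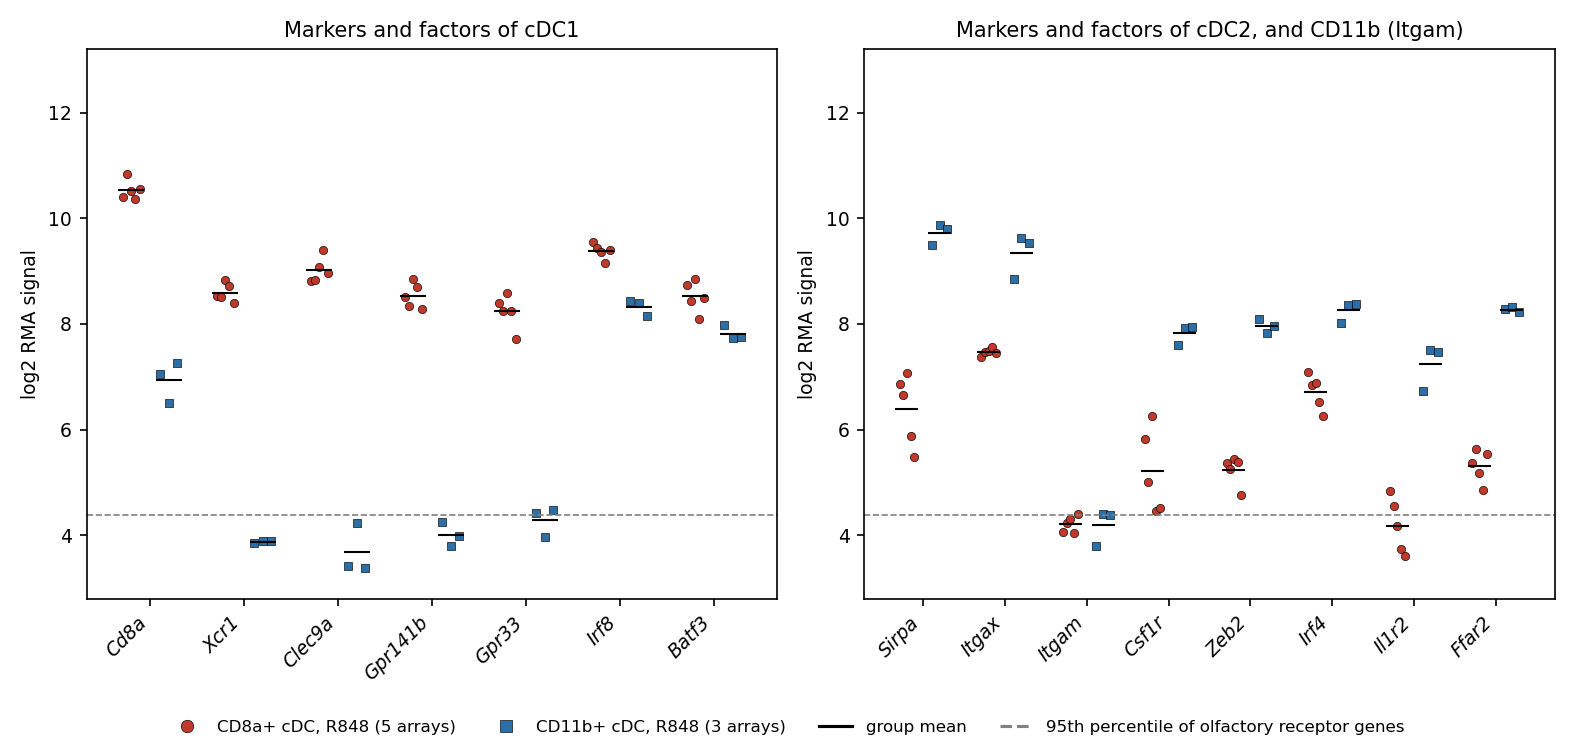
Log2 RMA signal of lineage genes in each array (red circles, 5 CD8a+ cDC arrays; blue squares, 3 CD11b+ cDC arrays, all after R848), with black bars at the group means and a dashed line at the 95th percentile of olfactory receptor genes (4.39). The groups are apart for every gene plotted except Itgam, which lies near the dashed line in both.

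Transcription factors of dendritic cells differed in both directions, 7 of 36 higher in CD8a+ cDC and 9 lower, or 44.4% called. Irf8 was at 9.54, 9.44, 9.37, 9.15 and 9.40 in CD8a+ cDC and 8.43, 8.39 and 8.16 in CD11b+ cDC (1.05 ± 0.10), and Irf4, its counterpart in cDC2, at 7.09, 6.83, 6.88, 6.53 and 6.26 in CD8a+ cDC and 8.02, 8.36 and 8.38 in CD11b+ cDC (-1.54 ± 0.18). Neither gene overlapped between the groups, but both were detected well above the floor in both subsets. Batf3, the partner of IRF8, was higher by 0.70 ± 0.16. Its call was lost without CD11b+ replicate 2 or 3 or CD8a+ replicate 1 or 5 (adjusted p = 0.0506 to 0.104) and with CD8a+ replicates 4 and 5 alone (adjusted p = 0.15). Batf (0.96 ± 0.18) and the interferon-induced Irf1 (0.88 ± 0.10) were higher in CD8a+ cDC, as was Irf7 (1.29 ± 0.14), which amplifies type I interferon. On the other side stood Zeb2, a repressor that opposes the cDC1 fate, at 5.36, 5.26, 5.43, 5.38 and 4.76 in CD8a+ cDC and 8.09, 7.83 and 7.95 in CD11b+ cDC (-2.72 ± 0.15), the myeloid factor Cebpa (-2.30 ± 0.22), and Bcl11a (-1.28 ± 0.21) and Tcf4 (-1.15 ± 0.13), which are also known from B cells and plasmacytoid dendritic cells. Irf5 (0.14 ± 0.13, adjusted p = 0.644), Spib (-0.00 ± 0.25, adjusted p = 0.996) and Zbtb46, a factor shared by all cDC (0.21 ± 0.12, adjusted p = 0.405), did not pass the test. Among growth factor receptors, Flt3, which the cDC lineage needs, was modestly higher in CD8a+ cDC at 10.24, 10.26, 10.22, 10.28 and 10.57 in CD8a+ cDC and 9.71, 9.56 and 9.81 in CD11b+ cDC (0.62 ± 0.10). Csf2rb, the shared chain for GM-CSF, IL-3 and IL-5, was lower (-0.64 ± 0.06), and in all 1 of 8 receptors was higher and 4 lower.

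The receptor for R848 itself was not called. Tlr7 was at 5.40, 5.33, 5.25, 5.23 and 3.69 in CD8a+ cDC and 5.86, 7.07 and 5.85 in CD11b+ cDC, with no overlap between the groups, but its difference of -1.28 ± 0.44 did not pass the test (adjusted p = 0.119, 95% interval -2.28 to -0.28). CD8a+ replicate 5 lay far below the other CD8a+ arrays, and without it the difference was -0.96 (adjusted p = 0.0872). Of 10 Toll-like receptors, 2 were higher and 2 lower in CD8a+ cDC. Tlr12, which recognizes the parasite protein profilin, was at 7.56, 7.41, 7.27, 6.98 and 7.20 in CD8a+ cDC and 6.46, 5.95 and 6.06 in CD11b+ cDC. Tlr3, the receptor for double-stranded RNA, was higher by 1.32 ± 0.27, a call that was lost without CD11b+ replicate 2 or 3 (adjusted p = 0.0553 to 0.0598) and with CD8a+ replicates 4 and 5 alone (adjusted p = 0.0871). Tlr1, which works with Tlr2 on lipoproteins, was lower (-1.12 ± 0.17), while Tlr2 itself (0.19 ± 0.15, adjusted p = 0.54), Tlr9 (0.11 ± 0.12, adjusted p = 0.687), Tlr13 (-0.16 ± 0.10, adjusted p = 0.405) and Tlr4 (-0.37 ± 0.26, adjusted p = 0.496) were not called. Tlr4 was near the floor in both groups. Tlr8 was called lower (-0.86 ± 0.06), also with both groups near the floor (3.49 ± 0.02 in CD8a+ cDC and 4.34 ± 0.09 in CD11b+ cDC). Of 21 signalling genes, the kinase Tbk1 was higher (0.58 ± 0.09) and the adaptor Ticam2 lower (-2.30 ± 0.28), and Myd88, through which TLR7 signals, was at -0.25 ± 0.15, adjusted p = 0.43. In all 2 signalling genes were higher and 2 lower. Without CD11b+ replicate 2 or 3 both counts were 1. The lower count was also 1 without CD8a+ replicate 2, 4 or 5.

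Of 20 cytosolic sensors and inflammasome genes, 7 were lower in CD8a+ cDC and 2 higher, with a median of -0.34. Nod1, a sensor of bacterial peptidoglycan, was at 5.15, 4.98, 5.58, 4.19 and 4.94 in CD8a+ cDC and 7.55, 7.98 and 8.24 in CD11b+ cDC (-2.96 ± 0.28, 7.78-fold lower). No CD8a+ array reached the CD11b+ values. Nlrp3 (-1.45 ± 0.18), the inflammasome receptor Naip2, which detects bacterial secretion systems (-1.24 ± 0.18), the protease Casp1, which matures interleukin-1 (-0.76 ± 0.09), and the viral RNA sensor Ddx58, or RIG-I (-0.91 ± 0.13), were lower as well. Nlrp3 was near the floor in CD8a+ cDC. The pore-forming effector Gsdmd differed the other way (0.80 ± 0.11). Genes under NF-kB were split, with 5 of 23 higher and 4 lower and a median of 0.04. They included the phosphatase Dusp2, higher by 0.90 ± 0.11, and the inhibitor Nfkbiz, at -0.69 ± 0.12, while the feedback inhibitors Nfkbia (0.20 ± 0.11, adjusted p = 0.357) and Tnfaip3 (0.05 ± 0.12, adjusted p = 0.872) were not called. For NF-kB targets and feedback, the higher count was 2 to 3 without CD11b+ replicate 2 or with CD8a+ replicates 4 and 5 alone. For NF-kB targets and feedback, the lower count was 2 without CD11b+ replicate 3 or with CD8a+ replicates 4 and 5 alone.

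Interferon-stimulated genes did not differ as a block. Of 43 measured members, 12 were higher in CD8a+ cDC, 8 lower and 23 not called, and the median difference of 0.10 was close to that of all genes. Oasl1, an OAS-like protein, was at 9.79, 10.10, 9.85, 9.75 and 9.75 in CD8a+ cDC and 8.01, 7.62 and 8.26 in CD11b+ cDC (1.89 ± 0.14). Ifi205, a relative of the DNA sensor IFI16, was at 10.19, 10.27, 10.20, 10.03 and 9.66 in CD8a+ cDC and 8.50, 8.49 and 8.11 in CD11b+ cDC (1.70 ± 0.15). Oas3, which makes the activator of RNase L, was higher by 1.32 ± 0.19, and Ifit2 by 1.03 ± 0.15. All arrays of CD8a+ cDC exceeded those of CD11b+ cDC for these 4 genes. In the other direction, Ifitm1, which blocks virus entry, was at 7.60, 7.68, 7.95, 7.20 and 6.96 in CD8a+ cDC and 11.08, 10.79 and 10.65 in CD11b+ cDC (-3.37 ± 0.22, 10.3-fold lower). Widely used reporters of the interferon response were not called: Rsad2 (-0.12 ± 0.13, adjusted p = 0.697), Ifit1 (0.43 ± 0.26, adjusted p = 0.401), Oas1a (-0.22 ± 0.19, adjusted p = 0.599), Usp18 (0.11 ± 0.09, adjusted p = 0.557), Mx1 (0.65 ± 0.18, adjusted p = 0.0591, but called without CD8a+ replicate 2 (adjusted p = 0.0498) and with CD8a+ replicates 4 and 5 alone (adjusted p = 0.0465)) and Ifitm3 (-0.20 ± 0.07, adjusted p = 0.145). Isg15 and Ifi44 were not measured by a row with 1 symbol. For interferon-stimulated genes, the lower count was 3 to 5 without CD11b+ replicate 1, 2 or 3. With CD8a+ replicates 1 to 3 alone 12 members were higher and 7 lower, and with replicates 4 and 5 alone 9 and 8.

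Guanylate-binding proteins, GTPases that attack the vacuoles of intracellular pathogens, were split as well. Of 16 interferon-inducible GTPases, only 8 were measured by a row with 1 symbol. Of these 8, 3 were higher in CD8a+ cDC, 2 lower and 3 not called. Gbp4 was at 9.73, 9.54, 9.57, 10.15 and 9.98 in CD8a+ cDC and 7.94, 8.66 and 8.50 in CD11b+ cDC (1.43 ± 0.20), and Gbp9 was also higher in CD8a+ cDC (0.97 ± 0.12). Gbp7 was at 4.39, 4.98, 4.79, 4.12 and 4.41 in CD8a+ cDC and 6.06, 6.82 and 6.39 in CD11b+ cDC (-1.88 ± 0.22), and Gbp3 was also lower (-1.19 ± 0.11). All 4 were without overlap between the groups, so members of this family were apart in opposite directions in the same 8 arrays. Their sequences are alike and array probes can cross-react between them. Of the receptors and kinases of interferon signalling, Ifngr1, a chain of the interferon-gamma receptor, was lower in CD8a+ cDC at 7.81, 7.54, 7.79, 7.59 and 7.28 in CD8a+ cDC and 8.68, 8.82 and 8.84 in CD11b+ cDC (-1.17 ± 0.12). Ifnar1 (0.30 ± 0.10, adjusted p = 0.118, but called without CD8a+ replicate 5 (adjusted p = 0.0146) and with CD8a+ replicates 1 to 3 alone (adjusted p = 0.0147)) and Ifnlr1 (0.14 ± 0.14, adjusted p = 0.651) were not called, and Ifnb1 itself was near the floor in both groups (3.54 ± 0.06 in CD8a+ cDC and 3.50 ± 0.07 in CD11b+ cDC). Of 17 interferon, receptor and kinase genes 1 was higher and 3 were lower. For interferons and their receptors, the lower count was 1 without CD11b+ replicate 3 or CD8a+ replicate 3 or with CD8a+ replicates 4 and 5 alone.

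Promoter sequences are shown for the interferon-related genes that were called by at least 2-fold in either direction and hold the core of the interferon-stimulated response element (ISRE) in the 250 bases before the start. The core was searched as GAAANNGAA on both strands of RefSeq promoter windows (build GRCm38.p6), 250 bases before to 50 after the first listed start of each gene, and matches may overlap each other and other motifs. Capitals mark the matches. Ifi205 (chr1:174031756-174032005, minus strand) and Oas3 (chr5:120777660-120777909, minus strand) were higher in CD8a+ cDC, while Gbp7 (chr3:142530086-142530335, plus strand) and Gbp3 (chr3:142559794-142560043, plus strand) were lower. Each is printed 5′ to 3′ on the gene's strand.
Ifi205: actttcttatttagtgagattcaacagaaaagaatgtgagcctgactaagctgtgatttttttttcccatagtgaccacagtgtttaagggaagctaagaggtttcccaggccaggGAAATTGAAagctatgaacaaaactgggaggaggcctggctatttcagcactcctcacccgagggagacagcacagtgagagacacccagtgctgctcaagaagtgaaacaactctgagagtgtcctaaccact
Oas3: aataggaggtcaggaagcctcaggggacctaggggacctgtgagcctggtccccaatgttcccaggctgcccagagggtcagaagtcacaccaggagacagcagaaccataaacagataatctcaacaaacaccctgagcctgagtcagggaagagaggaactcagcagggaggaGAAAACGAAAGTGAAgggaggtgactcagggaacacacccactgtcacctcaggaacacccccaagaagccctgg
Gbp7: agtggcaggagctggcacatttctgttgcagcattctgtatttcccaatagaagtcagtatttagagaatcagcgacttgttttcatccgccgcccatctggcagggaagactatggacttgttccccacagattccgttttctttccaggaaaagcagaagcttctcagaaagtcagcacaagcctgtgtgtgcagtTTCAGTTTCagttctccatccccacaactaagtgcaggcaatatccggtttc
Gbp3: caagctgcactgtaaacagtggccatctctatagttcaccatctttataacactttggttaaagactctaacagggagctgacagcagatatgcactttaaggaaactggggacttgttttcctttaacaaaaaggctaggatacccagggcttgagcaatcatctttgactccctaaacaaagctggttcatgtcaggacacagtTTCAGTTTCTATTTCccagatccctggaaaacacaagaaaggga
The printed match begins 134 bases before the start in Ifi205 and 52 bases before it in Gbp7. The searched window of Ifi205 holds a further match that begins at base 25 from the start, outside the printed bases. Oas3 holds overlapping matches at 75 and 69 bases and Gbp3 at 44 and 38 bases before the start. The printed genes were chosen for holding the core, so its presence in them is no result. It was present in 56.25% of 32 windows of interferon-stimulated genes and in 7.94% of all 15614 windows. Among genes at least 2-fold higher in CD8a+ cDC it was in 7.62% of 210 windows, and among those at least 2-fold lower in 13.66% of 344. The ETS-IRF composite GGAANNGAA, an element that PU.1 binds with IRF4 or IRF8, was in 8.57% of the higher, 13.08% of the lower and 7.58% of all windows. The AP-1 motif TGANTCA was in 6.19%, 7.56% and 6.98%, and the NF-kB motif GGGANNNCC in 25.71%, 24.42% and 20.95% in the same order. A match is a description of these windows only.

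Cytokine genes gave some of the largest differences, mostly towards CD11b+ cDC. Il1b, the inflammatory cytokine interleukin-1 beta, was at 7.62, 7.00, 7.86, 6.97 and 6.43 in CD8a+ cDC and 11.03, 10.97 and 11.12 in CD11b+ cDC (-3.86 ± 0.29, 14.5-fold lower in CD8a+ cDC). Il1rn, the natural antagonist of its receptor, was at 8.10, 7.86, 7.97, 7.34 and 7.09 in CD8a+ cDC and 9.89, 9.94 and 9.75 in CD11b+ cDC (-2.19 ± 0.22). Il6, which supports B cell and IgA responses, was at 5.11, 4.94, 4.56, 4.78 and 4.50 in CD8a+ cDC and 7.79, 6.60 and 7.22 in CD11b+ cDC (-2.42 ± 0.25). For all 3 genes every CD11b+ array lay above every CD8a+ array. Tgfb1, which drives the switch to IgA, was lower too (-1.23 ± 0.15). CD8a+ cDC were higher for Il15, a growth factor of NK cells and memory CD8 T cells, at 9.30, 9.52, 9.71, 9.87 and 9.67 in CD8a+ cDC and 8.66, 7.48 and 8.25 in CD11b+ cDC (1.48 ± 0.24), and for both chains of interleukin-27, Ebi3 (0.99 ± 0.15) and Il27 (0.80 ± 0.10). In all, 4 of 27 cytokine genes were higher and 7 lower, with a median of 0.02. Il12b, the shared chain of IL-12 and IL-23, was at 6.22, 6.38, 6.29, 6.29 and 6.26 in CD8a+ cDC and 8.22, 7.21 and 6.87 in CD11b+ cDC, lower in CD8a+ cDC (-1.15 ± 0.26). Its call was lost with CD8a+ replicates 1 to 3 alone (adjusted p = 0.0877) and with CD8a+ replicates 4 and 5 alone (adjusted p = 0.169). Il12a was called lower (-0.33 ± 0.08) at levels near the floor (group means 4.04 ± 0.10 in CD8a+ cDC and 4.37 ± 0.10 in CD11b+ cDC), and this call was lost without CD11b+ replicate 2 or 3 or CD8a+ replicate 1, 3, 4 or 5 (adjusted p = 0.0609 to 0.152), with CD8a+ replicates 1 to 3 alone (adjusted p = 0.112) and with CD8a+ replicates 4 and 5 alone (adjusted p = 0.0888). Il23a (-0.04 ± 0.12, adjusted p = 0.912), Il10 (-0.52 ± 0.15, adjusted p = 0.0643, but called without CD11b+ replicate 1 or CD8a+ replicate 1 (adjusted p = 0.0128 to 0.0355)), Il1a (0.33 ± 0.42, adjusted p = 0.744) and Tnf (0.42 ± 0.22, adjusted p = 0.319) were not called. Il23a, Il10 and Il1a were near the floor in both groups. Of 15 ligands of the TNF superfamily, 1 was called, Tnfsf9, the ligand of 4-1BB on T cells. It was higher in CD8a+ cDC (1.40 ± 0.25), and its call was lost with CD8a+ replicates 4 and 5 alone (adjusted p = 0.0971). Cd70 was at 0.69 ± 0.20, adjusted p = 0.062, but called without CD8a+ replicate 4 (adjusted p = 0.0169) and with CD8a+ replicates 1 to 3 alone (adjusted p = 0.0109). Its CD11b+ mean was near the floor.

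A few chemokine genes differed by more than 4-fold, and most of the others were not called. Ccl19, which draws T cells and mature dendritic cells through CCR7, was at 8.73, 8.77, 8.89, 8.75 and 8.60 in CD8a+ cDC and 5.70, 5.46 and 5.48 in CD11b+ cDC and was the 1 gene of 31 chemokines called higher in CD8a+ cDC (3.20 ± 0.09, 9.19-fold). Ccl8 was at 3.74, 3.73, 3.76, 3.77 and 3.78 in CD8a+ cDC and 7.26, 8.22 and 7.73 in CD11b+ cDC (-3.98 ± 0.18). Ccl3, a ligand of CCR1, was at 4.79, 4.18, 4.63, 4.47 and 5.33 in CD8a+ cDC and 7.38, 8.77 and 9.11 in CD11b+ cDC (-3.74 ± 0.39). CD8a+ cDC were near the floor for Ccl8 on every array, and for Cxcl2 in the group mean. Cxcl2, which attracts neutrophils, was lower by 4.75-fold (-2.25 ± 0.33), and Ccl17, a ligand of CCR4, was also lower (-1.43 ± 0.24), so that 6 chemokines were lower in all. Transcripts at high signal in both subsets were not called: Ccl5 (12.25 ± 0.05 in CD8a+ cDC and 12.31 ± 0.11 in CD11b+ cDC), Ccl22 (11.47 ± 0.11 in CD8a+ cDC and 11.49 ± 0.05 in CD11b+ cDC), Cxcl9 (0.30 ± 0.11, adjusted p = 0.135, but called without CD8a+ replicate 5 (adjusted p = 0.012) and with CD8a+ replicates 1 to 3 alone (adjusted p = 0.0279)) and Cxcl16 (10.75 ± 0.03 in CD8a+ cDC and 10.92 ± 0.19 in CD11b+ cDC). Cxcl10, induced by interferons, was at -0.65 ± 0.24, adjusted p = 0.151, and its receptor Cxcr3 at -0.16 ± 0.16, adjusted p = 0.669.

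**Figure D2:**
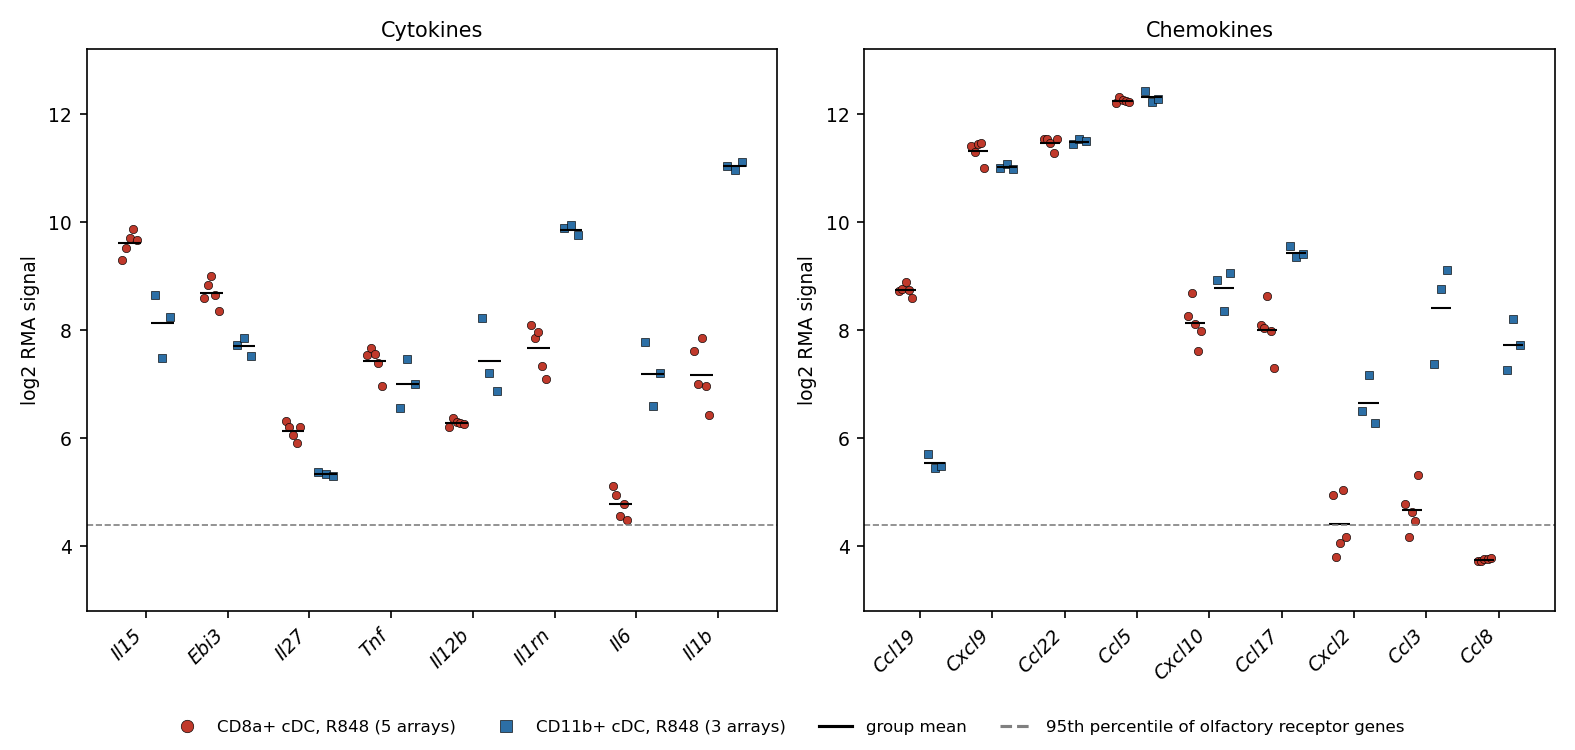
Log2 RMA signal of cytokine and chemokine genes in each array (red circles, 5 CD8a+ cDC arrays; blue squares, 3 CD11b+ cDC arrays), with black bars at the group means and a dashed line at the 95th percentile of olfactory receptor genes (4.39). Il1b, Il6, Ccl3 and Ccl8 are higher in every CD11b+ array and Ccl19 in every CD8a+ array, while Tnf, Ccl5 and Ccl22 overlap.

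Chemokine receptors and migration genes were lower in CD8a+ cDC at 7 of 21 members and higher at 2. Ccr9, which guides cells to the small intestine by CCL25, was at 4.79, 4.97, 4.67, 4.84 and 4.44 in CD8a+ cDC and 8.77, 8.59 and 8.59 in CD11b+ cDC (-3.91 ± 0.12, adjusted p = 9.03e-07, limma). Ccr1, a receptor of CCL3, was at 3.85, 3.50, 4.41, 3.53 and 3.40 in CD8a+ cDC and 6.16, 7.12 and 6.69 in CD11b+ cDC (-2.92 ± 0.27). Ccr6, which follows CCL20 made by the epithelium over Peyer's patch follicles, was at 6.09, 6.13, 5.67, 6.05 and 5.54 in CD8a+ cDC and 7.25, 8.12 and 8.07 in CD11b+ cDC (-1.92 ± 0.23). The CD8a+ arrays lay below the CD11b+ arrays for all 3 receptors. Gpr183, or EBI2, which places cells at the edge of follicles by oxysterols, was lower (-2.07 ± 0.17), and so were Cxcr4 (-1.65 ± 0.14) and Cxcr5, the receptor for the follicle chemokine CXCL13, which B cells also carry (-1.65 ± 0.28). Ccr7, which leads dendritic cells into T cell zones, was at 11.87, 11.99, 11.82, 11.99 and 12.01 in CD8a+ cDC and 11.75, 11.74 and 11.92 in CD11b+ cDC, overlapping between the groups (0.13 ± 0.08, adjusted p = 0.387, 95% interval -0.04 to 0.30). Fscn1, an actin bundler of mature dendritic cells, was at 0.44 ± 0.12, adjusted p = 0.0559, but called without CD11b+ replicate 1 or CD8a+ replicate 4 (adjusted p = 0.0187 to 0.027) and with CD8a+ replicates 1 to 3 alone (adjusted p = 0.0296). The scavenging receptor Ackr3 was higher in CD8a+ cDC (0.64 ± 0.08). Ccr1 and Cxcr5 were near the floor in CD8a+ cDC and Ackr3 in both groups.

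Of 32 co-stimulatory and maturation genes, 7 were higher in CD8a+ cDC and 3 lower, with a median of -0.04. Il15ra, which presents IL-15 in trans, was at 9.88, 9.90, 9.79, 9.92 and 10.22 in CD8a+ cDC and 8.75, 8.69 and 8.79 in CD11b+ cDC (1.20 ± 0.10). Pdcd1lg2, the PD-1 ligand PD-L2, was at 8.94, 9.17, 9.00, 9.17 and 9.30 in CD8a+ cDC and 8.12, 8.16 and 8.34 in CD11b+ cDC (0.91 ± 0.10), and the death receptor Fas was higher by 0.97 ± 0.17. In these genes the CD8a+ arrays were all above the CD11b+ arrays. The receptor Il7r was far lower in CD8a+ cDC (-2.23 ± 0.11). The ligands of CD28, ICOS and the maturation marker CD83 did not pass the test: Cd86 (-0.09 ± 0.22, adjusted p = 0.881), Cd80 (0.54 ± 0.16, adjusted p = 0.0795, but called without CD8a+ replicate 2 (adjusted p = 0.0239)), Cd83 (0.33 ± 0.12, adjusted p = 0.131) and Icosl (0.22 ± 0.12, adjusted p = 0.337). Cd40 was higher by 0.55 ± 0.12, and its call was lost without CD11b+ replicate 2 or 3 (adjusted p = 0.0962 to 0.0963), after quantile normalization (adjusted p = 0.0615), with CD8a+ replicates 1 to 3 alone (adjusted p = 0.0707) and with CD8a+ replicates 4 and 5 alone (adjusted p = 0.115). For co-stimulation and maturation, the higher count was 3 with CD8a+ replicates 4 and 5 alone. For co-stimulation and maturation, the lower count was 1 without CD11b+ replicate 3.

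Called antigen presentation genes differed in opposite directions by MHC class. Of 15 class II genes, 0 were higher and 8 lower in CD8a+ cDC (median -0.25), and of 19 class I genes 10 were higher and 1 lower (median 0.43). Ciita, the master regulator of class II transcription, was at 6.33, 6.11, 6.32, 6.35 and 6.35 in CD8a+ cDC and 7.94, 8.33 and 8.53 in CD11b+ cDC (-1.98 ± 0.13). H2-Oa, a chain of the peptide-loading inhibitor H2-O, was at 8.84, 8.87, 8.99, 7.70 and 7.88 in CD8a+ cDC and 10.21, 10.03 and 10.02 in CD11b+ cDC (-1.63 ± 0.31), and its partner H2-Ob was lower by a like amount (-1.36 ± 0.22). H2-Eb2 showed the largest class II difference (-2.50 ± 0.15). The classical chain H2-Ab1 was at 11.57, 11.56, 11.50, 11.45 and 11.25 in CD8a+ cDC and 11.92, 12.05 and 12.06 in CD11b+ cDC, a 1.46-fold difference, and the invariant chain Cd74 was not called (-0.09 ± 0.07, adjusted p = 0.581). All of the called genes named so far were without overlap between the arrays. Calls of other classical class II chains were less stable. Of those called lower, 1 lost the call in 7 of the 8 fits with an array left out and another in 4. Both also lost it with CD8a+ replicates 1 to 3 alone (adjusted p = 0.129 and 0.0742, limma).

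On the class I side stood Nlrc5, the regulator of class I transcription that resembles CIITA, at 10.80, 10.20, 10.20, 10.12 and 10.85 in CD8a+ cDC and 8.92, 9.03 and 9.06 in CD11b+ cDC (1.43 ± 0.19). Tap1 (0.81 ± 0.09) and Tap2, at 8.88, 8.71, 8.81, 8.65 and 8.81 in CD8a+ cDC and 7.53, 7.67 and 7.61 in CD11b+ cDC (1.17 ± 0.07), which pump peptides into the endoplasmic reticulum, were both higher in CD8a+ cDC. So was Psmb8, a subunit of the immunoproteasome (0.51 ± 0.07), and Tapbp, or tapasin, was at 0.60 ± 0.12, a call that was lost without CD11b+ replicate 2 or 3 (adjusted p = 0.0522 to 0.0525) and with CD8a+ replicates 4 and 5 alone (adjusted p = 0.0658). B2m, the light chain of class I, was at 0.03 ± 0.06, adjusted p = 0.861, and H2-K1 and H2-D1 were not measured by a row with 1 symbol. Rab27a, called lower (-0.68 ± 0.15), is known for vesicle traffic, and its call was lost without CD11b+ replicate 1 or 2 (adjusted p = 0.0667 to 0.0789) and with CD8a+ replicates 1 to 3 alone (adjusted p = 0.068). For MHC class I presentation, the higher count was 4 with CD8a+ replicates 4 and 5 alone. For MHC class II presentation, the lower count was 5 without CD11b+ replicate 2 or 3 or CD8a+ replicate 4. Both gates were MHC class II positive. B cells also transcribe class II genes, H2-Oa and H2-Ob, and the B cell marker list averaged 5.65 to 6.73 over the CD8a+ arrays and 6.96 to 7.82 over the CD11b+ arrays. The part of these transcripts in the class II result was not tested. With CD8a+ replicates 1 to 3 alone 6 class II genes were lower, and with replicates 4 and 5 alone 7.

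**Figure D3:**
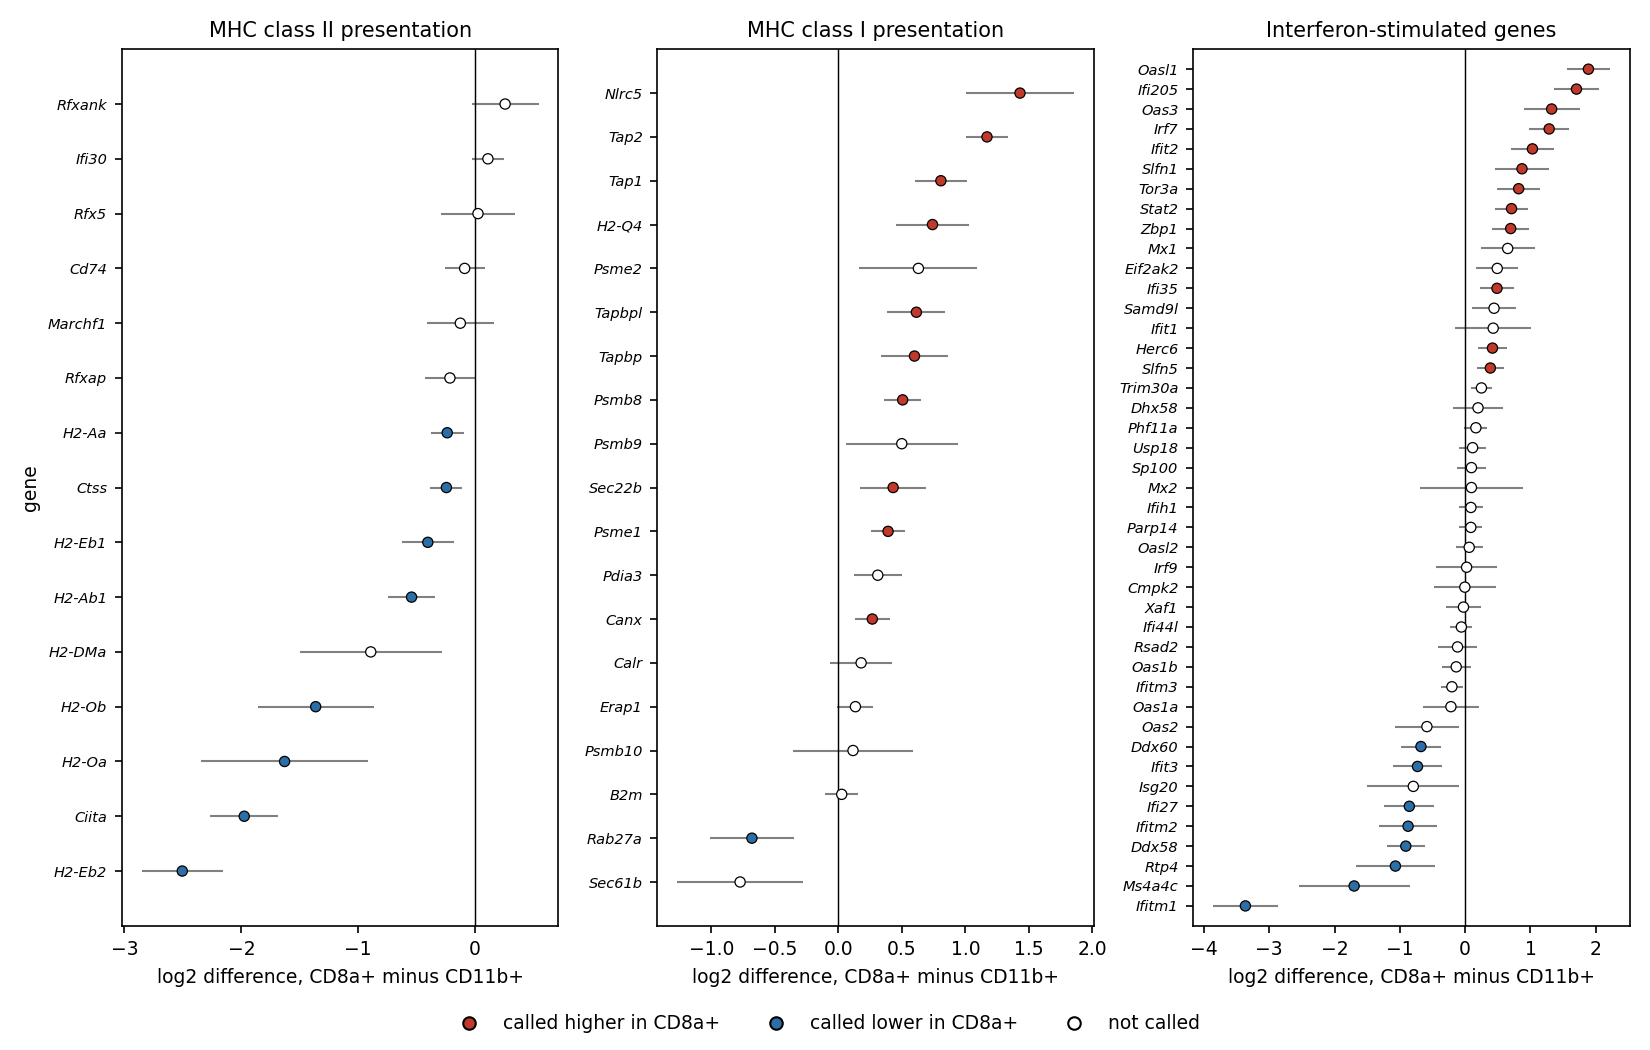
Log2 difference (CD8a+ minus CD11b+ cDC after R848, horizontal axis) of every measured member of the MHC class II, MHC class I and interferon-stimulated gene lists, with 95% intervals of the limma fit as lines. Red and blue points were called higher and lower in CD8a+ cDC and white points were not called. Called class II members lie left of 0, called class I members lie right of it except Rab27a, and interferon-stimulated genes lie on both sides.

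Lysosomal genes were called in both directions, 5 of 26 higher and 8 lower in CD8a+ cDC. Npc2, a cholesterol carrier of the lysosome, was at 11.61, 11.64, 11.53, 11.53 and 11.57 in CD8a+ cDC and 9.96, 10.33 and 10.14 in CD11b+ cDC (1.43 ± 0.09). The protease Ctsc, which activates granule proteases, was lower (-0.87 ± 0.15), as were the glycosidase Hexa (-1.65 ± 0.29) and Cd68 (-1.72 ± 0.23), a membrane protein of macrophage lysosomes. The cathepsins Ctsl (-0.44 ± 0.22, adjusted p = 0.304, but called with CD8a+ replicates 4 and 5 alone (adjusted p = 0.0354)) and Ctsd (-0.94 ± 0.46, adjusted p = 0.287, but called with CD8a+ replicates 4 and 5 alone (adjusted p = 0.0042)) were not called. For lysosomal proteases and hydrolases, the higher count was 1 to 3 without CD8a+ replicate 2 or 3 or with CD8a+ replicates 4 and 5 alone. For lysosomal proteases and hydrolases, the lower count was 3 to 5 without CD11b+ replicate 2 or 3.

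Receptors for uptake and recognition were called mostly among C-type lectins and Fc receptors. Of 28 C-type lectins and Fc receptors, 4 were higher and 10 lower in CD8a+ cDC. Clec12a, an inhibitory receptor for uric acid crystals, was at 8.74, 8.50, 9.38, 8.71 and 8.38 in CD8a+ cDC and 3.63, 3.54 and 3.46 in CD11b+ cDC (5.20 ± 0.20). Its CD11b+ values lay near the floor. Klrd1, the CD94 chain of NK cell receptors, was at 4.90, 4.72, 5.59, 5.49 and 5.02 in CD8a+ cDC and 8.76, 8.54 and 8.53 in CD11b+ cDC (-3.47 ± 0.20). The activating IgG receptor Fcgr4 was lower in CD8a+ cDC (-2.92 ± 0.36), together with Clec5a (-1.64 ± 0.16) and Clec4n, or dectin-2 (-1.03 ± 0.14), while Clec7a, the beta-glucan receptor dectin-1, was at 0.01 ± 0.23, adjusted p = 0.986. In CD8a+ cDC, Fcgr4, Clec5a and Clec4n were near the floor. Among receptors for dying cells, Timd4, which binds phosphatidylserine, was lower in CD8a+ cDC (-1.80 ± 0.18), and Axl (0.11 ± 0.20, adjusted p = 0.826) and Havcr2 (-0.82 ± 0.22, adjusted p = 0.0539, but called without CD11b+ replicate 1 or CD8a+ replicate 3 (adjusted p = 0.0182 to 0.0356)) were not called. Of 26 such receptors 1 was higher and 3 were lower. Of the phagocyte oxidase, the catalytic chain Cybb was at 8.55, 8.35, 8.14, 7.13 and 6.42 in CD8a+ cDC and 9.96, 10.60 and 10.38 in CD11b+ cDC (-2.59 ± 0.47). CD8a+ replicates 4 and 5 had the lowest Cybb values, and its call held with replicates 1 to 3 alone. Of 18 oxidase and antimicrobial genes 2 were higher and 2 lower. Mpeg1, the pore-forming perforin-2, was higher in CD8a+ cDC at 10.27, 10.30, 10.34, 10.45 and 10.22 in CD8a+ cDC and 8.17, 8.31 and 8.47 in CD11b+ cDC (2.00 ± 0.09). The monocyte and macrophage list, given below, moved with the lower genes of these groups, and its part was not tested. Among 19 integrins 2 were higher and 3 lower. Itgb1 was higher (0.51 ± 0.07), whereas Itgb7 (0.03 ± 0.07, adjusted p = 0.864), Itga4 (-0.24 ± 0.10, adjusted p = 0.194, but called without CD8a+ replicate 5 (adjusted p = 0.0488) and with CD8a+ replicates 1 to 3 alone (adjusted p = 0.032)) and Itgb8, which activates TGF-beta (0.84 ± 0.30, adjusted p = 0.128), were not called. For scavenger and dying-cell receptors, the lower count was 5 without CD11b+ replicate 1. For integrins, the lower count was 1 without CD11b+ replicate 2 or 3.

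Retinoic acid imprints gut homing and supports IgA. Of 17 genes of its synthesis or of IgA support, the 1 called higher in CD8a+ cDC was Aldh1a2, the enzyme RALDH2. It was at 10.34, 10.57, 10.48, 10.53 and 10.74 in CD8a+ cDC and 8.67, 9.03 and 8.95 in CD11b+ cDC, higher in every CD8a+ array (1.65 ± 0.11, 3.14-fold). The B cell survival factor Tnfsf13b, or BAFF, was not called (-0.10 ± 0.09, adjusted p = 0.633). Of the 17 genes of this list, 3 were lower in CD8a+ cDC, Il6 and Tgfb1 among them, and the median difference was -0.1. Of 23 eicosanoid and annexin genes, 3 were higher and 5 lower. Ptgs2, or cyclooxygenase-2, was at 8.19, 6.87, 8.30, 8.85 and 8.63 in CD8a+ cDC and 10.57, 10.57 and 10.81 in CD11b+ cDC (-2.48 ± 0.39, 5.58-fold lower in CD8a+ cDC). The leukotriene enzyme Lta4h was lower (-1.16 ± 0.11), and Pla2g7, which degrades platelet-activating factor, was lower by 5.25-fold (-2.39 ± 0.47). The call of Pla2g7 was lost without CD11b+ replicate 3 (adjusted p = 0.0511). The annexin Anxa4 was higher in CD8a+ cDC (0.79 ± 0.07). For eicosanoid and annexin genes, the higher count was 1 with CD8a+ replicates 4 and 5 alone. For eicosanoid and annexin genes, the lower count was 2 to 3 without CD11b+ replicate 3 or CD8a+ replicate 2.

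Immediate early genes, which answer both to stimulation and to tissue dissociation, were lower in CD8a+ cDC at 6 of 17 members and higher at 0. Ier2 was at 5.72, 5.71, 6.29, 6.07 and 6.19 in CD8a+ cDC and 7.44, 7.62 and 7.34 in CD11b+ cDC (-1.47 ± 0.15), and Egr1 (-1.17 ± 0.15), Jun (-1.06 ± 0.10) and Btg2 (-1.06 ± 0.16) were lower too. Fos (-0.48 ± 0.24, adjusted p = 0.305) and Atf3 (-0.23 ± 0.20, adjusted p = 0.606) overlapped between the groups. In glycolysis, 2 of 15 members were higher and 3 lower. Ldha, which makes lactate, was lower (-1.01 ± 0.10), and Pfkfb3, which stimulates phosphofructokinase, higher (0.80 ± 0.12). Bcl2l14, a relative of the BCL2 family, was at 9.78, 9.84, 9.90, 10.08 and 9.94 in CD8a+ cDC and 6.89, 7.15 and 6.88 in CD11b+ cDC and headed the apoptosis genes, of which 3 of 18 were higher and 1 lower. The survival factor Mcl1 (0.23 ± 0.07, adjusted p = 0.0822) and the killer Bcl2l11, or BIM (0.13 ± 0.12, adjusted p = 0.639), were not called. Cell cycle genes had 1 of 25 higher and 0 lower, with Mki67 at -0.32 ± 0.28, adjusted p = 0.598 and Top2a at -0.17 ± 0.31, adjusted p = 0.832. Of 17 cholesterol genes 3 were higher, among them Lss (1.01 ± 0.15) and Sqle (0.78 ± 0.14), and 1 was lower. The call of Lss was lost with CD8a+ replicates 4 and 5 alone (adjusted p = 0.0536), and that of Sqle was lost with CD8a+ replicates 4 and 5 alone (adjusted p = 0.122). For cholesterol synthesis, the higher count was 0 to 5 without CD11b+ replicate 1 or with CD8a+ replicates 4 and 5 alone. Of 10 housekeeping genes 2 were higher. Actb (0.06 ± 0.06, adjusted p = 0.629) and Ppia (-0.11 ± 0.07, adjusted p = 0.488) were not called, and Gusb, a lysosomal enzyme often used as a reference, was higher in CD8a+ cDC (1.55 ± 0.10). Lss was near the floor in CD11b+ cDC.

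The 15 largest called differences towards CD8a+ cDC, after those named above, included Arhgap8 (3.83 ± 0.15), the glycolipid glycosyltransferase B3gnt5 (3.71 ± 0.09), Mab21l3 (3.48 ± 0.07), the protease inhibitor Serpinb1a (3.31 ± 0.23), the O-glycan enzyme Galnt7 (3.28 ± 0.22), the lipid kinase Dgkk (3.28 ± 0.15) and Gramd3 (3.09 ± 0.10). B3gnt5 was at 8.80, 8.61, 8.83, 8.70 and 8.75 in CD8a+ cDC and 4.82, 5.12 and 5.13 in CD11b+ cDC. The largest towards CD11b+ cDC was Plet1, a surface protein with a lipid anchor, at 6.39, 4.79, 6.10, 4.60 and 5.22 in CD8a+ cDC and 10.29, 10.72 and 10.82 in CD11b+ cDC (-5.19 ± 0.41, 36.5-fold lower in CD8a+ cDC). Tarm1, an activating receptor of myeloid cells, was at 6.04, 5.68, 5.65, 5.13 and 5.64 in CD8a+ cDC and 10.57, 10.63 and 10.62 in CD11b+ cDC (-4.98 ± 0.17). Both genes were apart by several log2 units in every pair of arrays. The others on this side were Rgl1, an exchange factor for Ral GTPases (-3.92 ± 0.24), the cystine importer Slc7a11 (-3.83 ± 0.14), Ifitm6 (-3.74 ± 0.58), the adhesion receptor Adgre4 (-3.51 ± 0.15), the inhibitory sialic acid receptor Siglece (-3.36 ± 0.35) and Igsf6 (-3.16 ± 0.29). Mab21l3 and Dgkk were near the floor in CD11b+ cDC, and Rgl1 and Adgre4 in CD8a+ cDC.

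Markers of other cells moved with the groups in part. The B cell list averaged 5.65 to 6.73 in CD8a+ arrays and 6.96 to 7.82 in CD11b+ arrays, and 3 of 9 members were called lower in CD8a+ cDC (median -1.48). Pax5, the B lineage factor, was at 5.98, 5.29, 5.66, 4.91 and 5.19 in CD8a+ cDC and 6.63, 7.25 and 7.08 in CD11b+ cDC (-1.58 ± 0.24), and Ms4a1, or CD20, at 7.74, 7.95, 7.96, 7.16 and 7.09 in CD8a+ cDC and 8.35, 9.27 and 8.23 in CD11b+ cDC (-1.04 ± 0.30, adjusted p = 0.0623). Both genes were present above the floor in all CD11b+ arrays. The monocyte and macrophage list averaged 5.10 to 6.20 and 6.43 to 6.81, with 4 of 14 called lower (median -0.84). Lyz2, lysozyme M, was at 10.69, 10.31, 10.75, 7.47 and 5.10 in CD8a+ cDC and 11.98, 12.07 and 11.99 in CD11b+ cDC, without overlap but not called (-3.15 ± 1.25, adjusted p = 0.179, but called with CD8a+ replicates 1 to 3 alone (adjusted p = 0.00133) and with CD8a+ replicates 4 and 5 alone (adjusted p = 0.00961)). The complement gene C1qa (-1.06 ± 0.63, adjusted p = 0.404, but called with CD8a+ replicates 4 and 5 alone (adjusted p = 0.0047)), Mertk (-0.31 ± 0.22, adjusted p = 0.517), Apoe (-1.21 ± 0.46, adjusted p = 0.165, but called with CD8a+ replicates 4 and 5 alone (adjusted p = 0.0238)) and Cd14 (-0.12 ± 0.25, adjusted p = 0.849) did not pass, and Ms4a6c did (-2.94 ± 0.44). Mertk lay near the floor in both groups and Cd14 in CD8a+ cDC. For B cell markers, the lower count was 1 without CD11b+ replicate 2 or 3. For monocyte and macrophage markers, the lower count was 2 without CD11b+ replicate 3.

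Plasma cell markers averaged 5.89 to 7.01 in CD8a+ and 6.63 to 7.61 in CD11b+ arrays, with Jchain at 10.46, 10.18, 9.90, 8.26 and 8.45 in CD8a+ cDC and 9.41, 10.97 and 11.01 in CD11b+ cDC (-1.01 ± 0.60, adjusted p = 0.402). The values of Jchain overlapped between the groups, and CD8a+ replicates 4 and 5 were the lowest. Plasmacytoid dendritic cell markers averaged 6.12 to 6.44 and 7.09 to 7.19, with 3 of 11 called lower, 8 not called and a median difference of 0.00. The called genes were Ccr9, Tcf4 and the inhibitory receptor Lair1 (-3.03 ± 0.28), while the defining marker Siglech was near the floor in both groups (4.42 ± 0.17 in CD8a+ cDC and 4.37 ± 0.06 in CD11b+ cDC). Of 10 NK cell and ILC markers, 3 were called higher in CD8a+ cDC and 7 were not called, with a median of 0.05, while the list mean was 4.77 to 5.43 in CD8a+ and 4.21 to 4.44 in CD11b+ arrays. Gzma, a protease of cytotoxic granules, was at 7.58, 8.45, 8.53, 6.79 and 7.45 in CD8a+ cDC and 3.75, 4.10 and 5.40 in CD11b+ cDC (3.34 ± 0.48) and Il23r was higher as well (0.94 ± 0.15), whereas the defining NK gene Ncr1 was near the floor in both groups (3.45 ± 0.10 in CD8a+ cDC and 3.38 ± 0.07 in CD11b+ cDC). T cell markers averaged 4.68 to 5.42 and 5.06 to 5.16, with 2 of 10 lower, and Cd3e was at 0.63 ± 0.19, adjusted p = 0.0748, but called without CD8a+ replicate 4 (adjusted p = 0.0154) and with CD8a+ replicates 1 to 3 alone (adjusted p = 0.0314). Neutrophil markers averaged 4.17 to 4.63 and 3.95 to 4.07. Of 10 members, 1 was called higher in CD8a+ cDC and 1 lower, with a median difference of 0.09. S100a9, a neutrophil protein that binds calcium, was higher in CD8a+ cDC at 6.96, 6.65, 8.23, 6.72 and 6.46 in CD8a+ cDC and 4.71, 4.76 and 4.72 in CD11b+ cDC (2.27 ± 0.36), and the neutrophil-defining Ly6g was near the floor in both groups (3.02 ± 0.14 in CD8a+ cDC and 3.05 ± 0.07 in CD11b+ cDC). Epithelial markers averaged 4.04 to 4.22 and 4.20 to 4.40, and Epcam (-1.60 ± 0.21) and the M cell gene Gp2 (-1.18 ± 0.16) were lower in CD8a+ cDC with Krt8 at 0.02 ± 0.22, adjusted p = 0.97. Epcam and Gp2 were near the floor in CD8a+ cDC, and Gzma and Il23r in CD11b+ cDC. Stromal and endothelial (4.29 to 4.42 and 4.28 to 4.42), mast cell and basophil (3.90 to 4.01 and 3.94 to 4.04) and erythroid lists (4.29 to 4.68 and 4.26 to 4.30) lay near the floor. The part of other cells in the differences between the subsets was not tested.

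**Figure D4:**
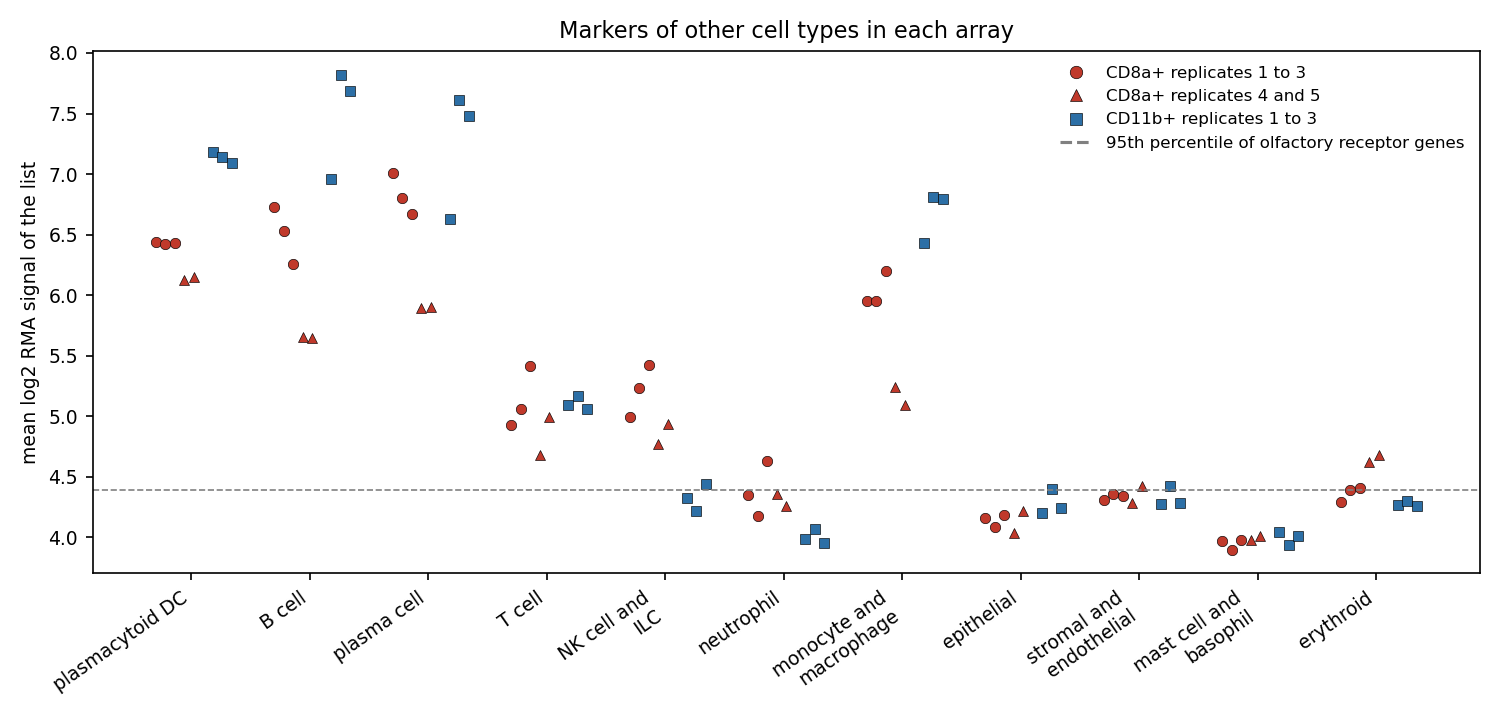
Mean log2 RMA signal of each list of markers of other cell types (vertical axis) in each array, with CD8a+ replicates 1 to 3 as red circles, CD8a+ replicates 4 and 5 as red triangles and the CD11b+ arrays as blue squares. The dashed line is the 95th percentile of olfactory receptor genes (4.39). The means of the B cell, macrophage and plasmacytoid lists are higher in the CD11b+ arrays and that of the NK cell and ILC list in the CD8a+ arrays, though most members of each were not called and the median differences of the plasmacytoid (0.00) and NK cell and ILC (0.05) lists were near 0, and CD8a+ replicates 4 and 5 are lowest for B cell, plasma cell and macrophage markers.

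Set side by side, the lists of dendritic cell genes had medians from -0.71 to 1.03. The MHC class I list (0.43) followed the cDC1 signature at the upper end, and the growth factor receptors (-0.58) followed the cDC2 signature at the lower end. Most lists held called genes on both sides of 0.

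**Figure D5:**
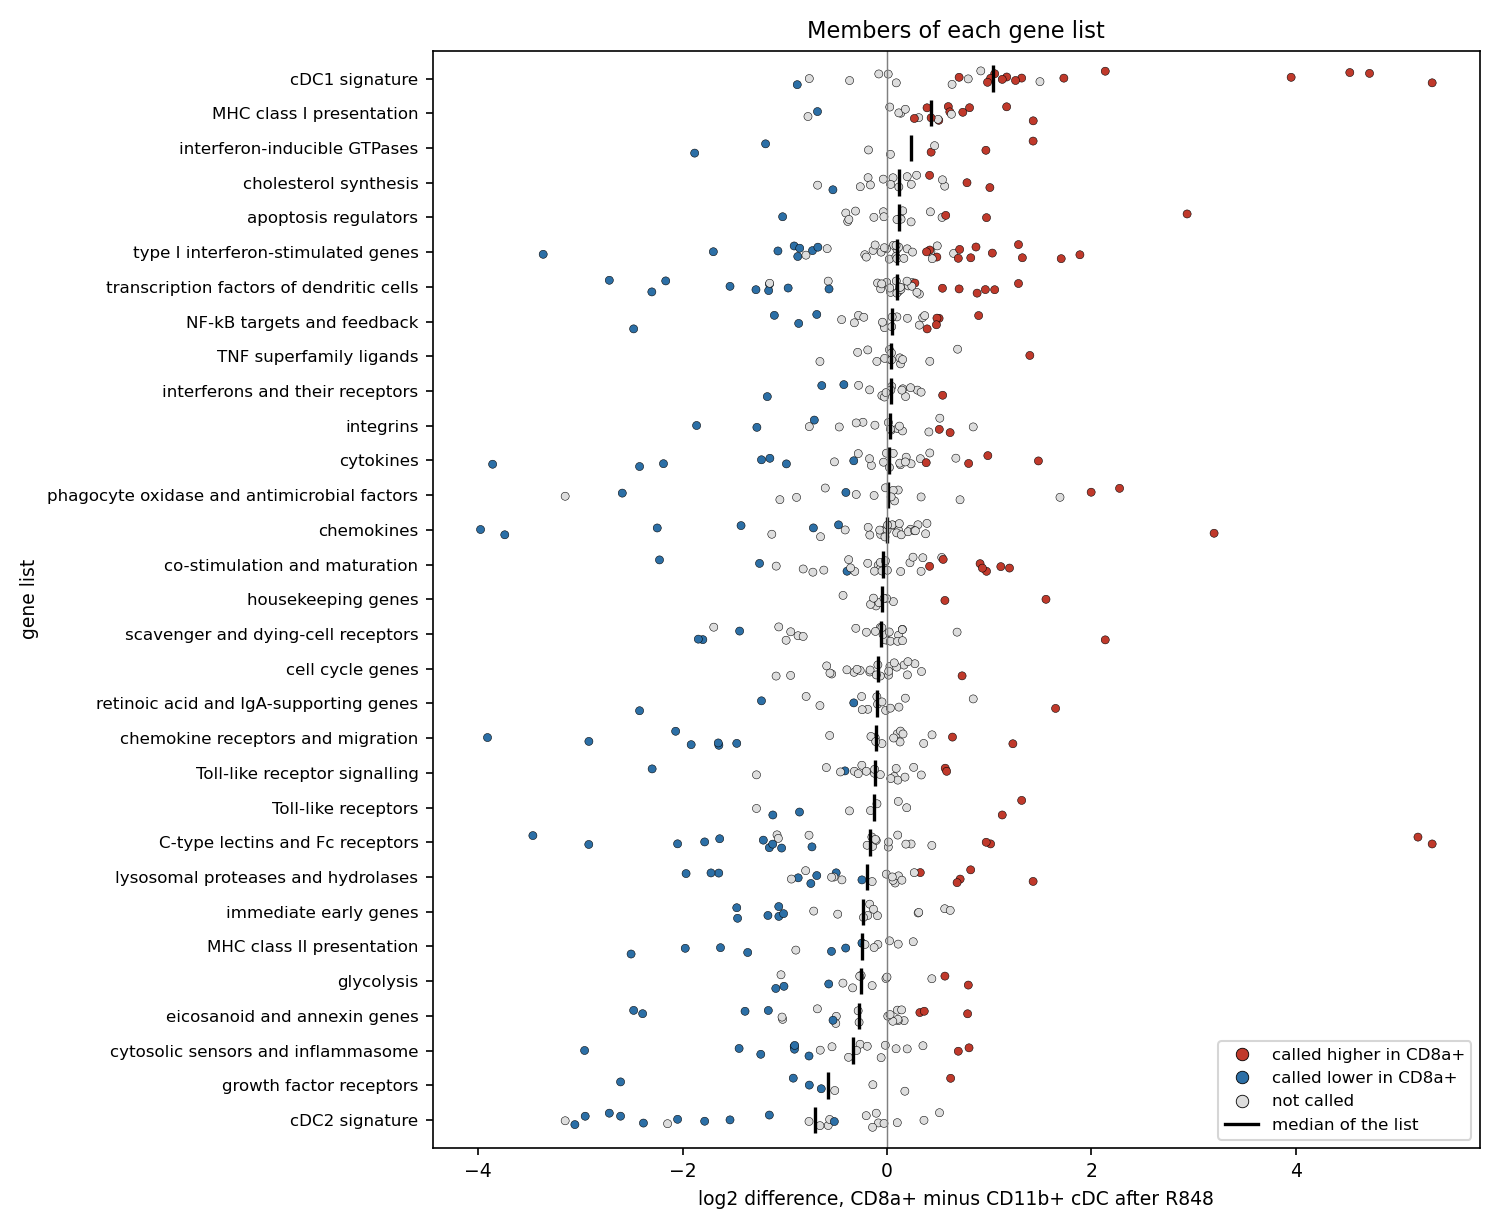
Log2 difference (CD8a+ minus CD11b+ cDC after R848) of every measured member of the lists of dendritic cell genes, 1 list per line, sorted by the list's median (black tick). Red and blue points were called higher and lower in CD8a+ cDC and grey points were not called. The cDC2 signature is at the bottom and the cDC1 signature at the top.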

How the data were processed

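The deposited log2 values are RMA signals that the authors made, per the submitters' processing notes, in Affymetrix Expression Console 1.4.1. Per the labels' protocols, 2 to 20 ng of total RNA were amplified with a NuGEN kit for Mouse Gene 1.0 ST arrays. Whether arrays were normalized together is not given in the sources used here. Rows with 1 gene symbol (21789 of 35556) were kept, each gene taking its transcript cluster with the highest mean, which left 19938 genes. The 8 R848 arrays were fitted in limma 3.58.1 (R 4.3.3) with lmFit and eBayes, two-sided, with Benjamini-Hochberg adjustment over all genes and calls at an adjusted p under 0.05. RMA shrinks large folds, and array number limits precision. Tested on simulated data for this comparison (19938 genes), the fit recovered 87 of 100 genes changed 2-fold and 98 of 100 changed 4-fold, with 6.566% false among calls. The simulated noise was normal and independent between arrays, with no shift shared by CD8a+ replicates 4 and 5. Fewer genes were changed than the 2039 called in the data, so these rates may not carry over. Replicate numbers are not said to mark a shared pool or day and were no block in the main fit. The gene lists and members were chosen with earlier results of these data known, and lists got no test. Named genes were all sort markers, the 15 largest non-overlapping calls in each direction without predicted names, and in each list its key members and up to 5 called members per direction. Promoters came from RefSeq (GRCm38.p6), 1 window a gene. The alternatives are given in the closing section.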

Additional observations from a re-analysis of the deposited data

Results flagged for a closer look

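Among the 222 genes named in the text, the highest or lowest of the 5 CD8a+ arrays stood further from the other arrays than Dixon's 95% limit in 16 genes (7.21%), where chance gives about 1 in 20. The 3 CD11b+ arrays are too few for this check. CD8a+ replicate 5 held 7 of these values, replicate 2 held 3, replicate 3 held 3, replicate 1 held 2 and replicate 4 held 1.

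CD8a+ replicate 5 was low for Gpr183 (7.82 against 8.46 to 8.54 in the other CD8a+ arrays), Ppia (11.32 against 11.52 to 11.59), Tcf4 (6.35 against 6.84 to 6.94), Tlr7 (3.69 against 5.23 to 5.40), Top2a (7.21 against 8.24 to 8.60) and Zeb2 (4.76 against 5.26 to 5.43). CD8a+ replicate 5 was high for Flt3 (10.57 against 10.22 to 10.28). CD8a+ replicate 2 was low for Ciita (6.11 against 6.32 to 6.35) and Itgb8 (4.70 against 5.47 to 5.64). CD8a+ replicate 2 was high for Oasl1 (10.10 against 9.75 to 9.85). CD8a+ replicate 3 was high for Epcam (4.39 against 4.01 to 4.10), Hexa (7.54 against 6.22 to 6.37) and S100a9 (8.23 against 6.46 to 6.96). CD8a+ replicate 1 was low for Cd14 (3.75 against 4.61 to 4.73). CD8a+ replicate 1 was high for Il10 (3.90 against 3.36 to 3.45). CD8a+ replicate 4 was low for Ccl22 (11.28 against 11.47 to 11.54). Leaving out the array concerned changed the call of Il10 (difference -0.52, adjusted p = 0.0643 with it, and -0.61, adjusted p = 0.0128 without it, limma) and of no other gene among these.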

How the results depend on the processing

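The fit called 2039 genes (979 higher, 1060 lower). With 1 array left out the total ran from 1409 to 1963, the higher count from 693 to 958 and the lower count from 696 to 1071, with the lowest lower count without CD11b+ replicate 3. Requiring a 2-fold difference as well left 686 (258 higher, 428 lower). The totals were 1991 (1019 higher, 972 lower) after a shift to a common median, 2098 (944 higher, 1154 lower) after cyclic loess, 2135 (1105 higher, 1030 lower) after quantile normalization, 2263 (1048 higher, 1215 lower) with a filter on dim genes, 2080 (982 higher, 1098 lower) with a robust variance trend, 2369 (1146 higher, 1223 lower) with array weights and 2033 (976 higher, 1057 lower) with the mean over transcript clusters. Chosen after seeing the data, CD8a+ replicates 1 to 3 alone gave 1906 (984 higher, 922 lower) and replicates 4 and 5 alone 1570 (663 higher, 907 lower), which shared 77.6% and 58.8% of the calls in the same direction. Of 142 called genes named in the text, 125 kept the call under all 18 alternatives apart from the fold threshold and 17 lost it under at least 1. Of the uncalled ones, 21 gained a call under at least 1. Of 86 counts of list members, 10 moved by over 1.5 times with CD8a+ replicates 1 to 3 alone, 27 with replicates 4 and 5 alone and 36 with the 2-fold threshold. Searched on the sense strand alone, the ISRE core was in 4.11% of all promoters, 4.76% of those of genes higher by at least 2-fold, 9.3% of lower ones and 34.38% of interferon-stimulated genes. The causes of these changes were not tested. With 3 CD11b+ pools, and signals near background in many genes, smaller differences may be missed.

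With the replicate number as a block, the calls were 1509 (776 higher, 733 lower), of which 1253 were shared in the same direction (61.5% of the unblocked calls), and 27 of 86 list counts moved by over 1.5 times. Among the genes named in the text, 9 lost the call in the blocked fit and 5 gained one. Deviations of same-numbered arrays from their group means correlated at -0.0258, 0.0784 and 0.0099 for replicates 1, 2 and 3. With so few arrays these values cannot settle whether same-numbered arrays shared a pool or day. The labels do not say so, and no pairing was used in the main fit.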
